A study of Mus musculus with 12 samples.

Results

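The 48 genes described here encode the DNA replication and S phase machinery. They were chosen by name, with earlier results of these data known. Their roles are origin licensing, helicase activation, the sliding clamp and its loader, the primase and polymerases, single-strand and flap handling, nucleotide supply and uracil handling, and chromatin assembly. All 48 were found among the 25655 genes of the deposited tables, and all 48 passed the filter on low values (at least 1 CPM in at least 3 libraries), which left 11417 genes to test. The mRNA came from CD8 T cells of the spleen of female C57BL/6 mice, in 12 libraries. There were 4 groups of 3 libraries: Ezh2-deficient cells (KO) at day 5, wild-type cells (WT) at day 5, KO at day 3 and WT at day 3. All groups began as naive cells and were treated alike: anti-TCR-β (3 µg/ml) fixed to the plate, with anti-CD28 (1 µg/ml) and IL-2 (10 ng/ml), stimulated them over 2 days, after which they stayed in IL-2 without the antibodies. Ezh2 belongs to Polycomb repressive complex 2 and adds the methyl groups of the silencing histone mark H3K27me3. The sources used here do not say how Ezh2 was deleted, and "day 5" follows the sample titles, because the culture times in the protocol do not add up to it.

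Naive T cells rest outside the cell cycle, and activation drives them into rapid division. In G1 the origin recognition complex, Cdc6 and Cdt1 load the Mcm2-7 helicase onto origins, and in S phase Cdc45 and the GINS complex turn it on. Primase and the polymerases then copy the DNA on the Pcna clamp, ribonucleotide reductase and its partners supply the building blocks, and histones and DNA methylation are restored behind the fork. Transcripts of many of these genes rise at the G1 to S border, and E2F transcription factors are known to act at many of their promoters.

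Libraries held 1545391 to 2011247 gene-assigned reads, and 11257 to 11973 genes were detected in each. Levels are given in CPM (counts per 1000000 reads of the library). Markers of the labelled cell type (Cd8a, Cd8b1 and CD3 genes among them) summed to 2242 to 2643 CPM in KO day 5, 1557 to 1585 CPM in WT day 5, 1226 to 1529 CPM in KO day 3 and 1513 to 1575 CPM in WT day 3. The genes in this sum did not all move alike. At day 5 the mean of Cd3d was 820.7 CPM in KO and 485.5 CPM in WT, and that of Cd8b1 387.6 and 358.2 CPM. At day 3 Cd8a had a mean of 242 CPM in KO and 322.6 CPM in WT, and Cd247 180.2 and 152 CPM. Of the KO day 5 libraries, replicate 2 stood apart over all genes: its counts differed from those of its partners by a chi-square of 5.69 and 5.89 per degree of freedom, against 1.33 to 2.56 in the 10 other pairs of replicates. The share of mitochondrially encoded reads was 2.07% in that library, against 3.00% and 3.12% in its partners. Whether replicates were separate mice or cultures is not labelled, so p-values reflect only library-to-library spread, and that may be technical.

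The promoters are shown first, because the members moved together, and the search in them was chosen after the values were known. RefSeq promoter windows (GRCm38.p6, 250 bases before to 50 after the annotated start) were found for 41 of the 48 genes. Of these genes, 6 had several windows (49 windows in all). Here and in the other gene sets, a gene was counted if any of its windows held the motif. An E2F-like motif was defined as TTTCCCGC, TTTCGCGC, TTTGCCGC or TTTGGCGC on either strand, and 17 of the 41 genes (41.5%) held it, against 4.81% of the 9112 other tested genes with a window and 2.6% of all 27025 genes with one. A CCAAT box (CCAAT on either strand) was in 25 of the 41 (61.0%), against 43.5% of the other tested genes. The CHR element (TTTGAA on either strand) was in 6 of the 41 (14.6%), against 14.4% of the other tested genes. A match describes letters in a window and does not show that a factor binds there. The following 30-base windows hold the E2F-like match of 8 genes described below, with the match in capitals, each read 5′ to 3′ on the strand of its gene.
Orc1 (chr4:108579416-108579445): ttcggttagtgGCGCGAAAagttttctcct
Mcm7 (chr5:138172030-138172059): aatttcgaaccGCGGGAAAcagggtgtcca
Gins3 (chr8:95633507-95633536): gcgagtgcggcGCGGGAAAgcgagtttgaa
Pole2 (chr12:69228162-69228191): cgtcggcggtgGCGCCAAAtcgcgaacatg
Pold1 (chr7:44548766-44548795): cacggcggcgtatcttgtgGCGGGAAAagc
Pold3 (chr7:100121467-100121496): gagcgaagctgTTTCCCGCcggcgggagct
Lig1 (chr7:13278841-13278870): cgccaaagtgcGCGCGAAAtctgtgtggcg
Hells (chr19:38930917-38930946): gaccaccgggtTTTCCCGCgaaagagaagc

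Longer upstream runs of 250 bases are shown for 3 genes with E2F-like matches and for Mcm2, which had none and which fell most among the licensing genes. Capitals mark E2F-like matches and CCAAT boxes, on either strand. Mcm6 and Mcm5 each have a pair of overlapping E2F-like matches read on opposite strands (TTTGGCGCGAAA and TTTCGCGCCAAA), and Mcm6 has a further one nearer its start.
Mcm6 (chr1:128359706-128359955, minus strand): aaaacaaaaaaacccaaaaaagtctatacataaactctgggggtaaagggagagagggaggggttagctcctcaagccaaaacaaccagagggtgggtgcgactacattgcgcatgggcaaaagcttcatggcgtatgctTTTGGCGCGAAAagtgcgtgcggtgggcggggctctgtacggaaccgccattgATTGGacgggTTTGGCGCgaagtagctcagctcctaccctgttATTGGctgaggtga
Mcm5 (chr8:75109259-75109508, plus strand): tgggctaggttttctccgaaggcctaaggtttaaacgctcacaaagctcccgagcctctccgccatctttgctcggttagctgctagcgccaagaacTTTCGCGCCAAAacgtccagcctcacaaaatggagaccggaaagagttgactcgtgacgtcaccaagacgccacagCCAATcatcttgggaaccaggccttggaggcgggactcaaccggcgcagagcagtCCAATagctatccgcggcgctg
Uhrf1 (chr17:56304063-56304312, plus strand): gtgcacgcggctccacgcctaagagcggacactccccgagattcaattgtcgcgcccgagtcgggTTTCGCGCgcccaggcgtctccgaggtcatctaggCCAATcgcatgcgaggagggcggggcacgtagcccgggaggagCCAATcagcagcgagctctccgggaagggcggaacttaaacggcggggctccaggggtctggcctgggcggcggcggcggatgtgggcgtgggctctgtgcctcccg
Mcm2 (chr6:88898781-88899030, minus strand): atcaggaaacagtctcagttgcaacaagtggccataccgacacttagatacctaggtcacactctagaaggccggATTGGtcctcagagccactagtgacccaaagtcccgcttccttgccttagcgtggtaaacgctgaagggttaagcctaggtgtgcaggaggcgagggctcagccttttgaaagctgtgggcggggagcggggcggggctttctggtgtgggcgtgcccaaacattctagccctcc

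**Figure D1:**
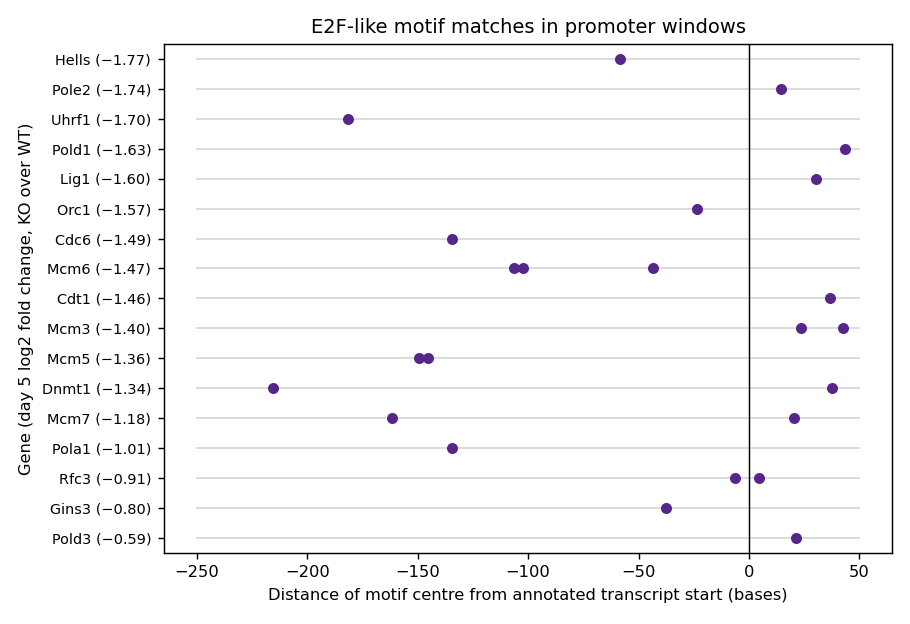
Position of each E2F-like match (point) in the promoter windows of the 17 genes that held one, in bases from the annotated start (line at 0). Genes run down the page by their day 5 log2 fold change, KO over WT, printed in parentheses, from −1.77 in Hells to −0.59 in Pold3, and matches lie on both sides of the start.

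The transcripts of the replication genes made up 0.301% to 0.316% of reads in KO day 5, 0.759% to 0.769% in WT day 5, 0.706% to 0.771% in KO day 3 and 0.897% to 0.918% in WT day 3. Summed over the 48 genes, the level was 3071 ± 79.9 CPM in KO day 5, 7653 ± 53.2 CPM in WT day 5, 7395 ± 327 CPM in KO day 3 and 9086 ± 108 CPM in WT day 3 (mean ± SD, n = 3 libraries each). The sum in KO day 5 was 40.1% of that in WT day 5, and the sum in KO day 3 was 81.4% of that in WT day 3. The KO day 3 libraries (7058 to 7711 CPM) spanned the WT day 5 libraries (7593 to 7692 CPM), while all KO day 5 libraries lay far below both. In bulk samples such as these, fewer cells in S phase and less of these RNAs per cell cannot be told apart. In KO day 5 replicate 2 the sum was 3039 CPM, between the 3162 and 3013 CPM of its partners.

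**Figure D2:**
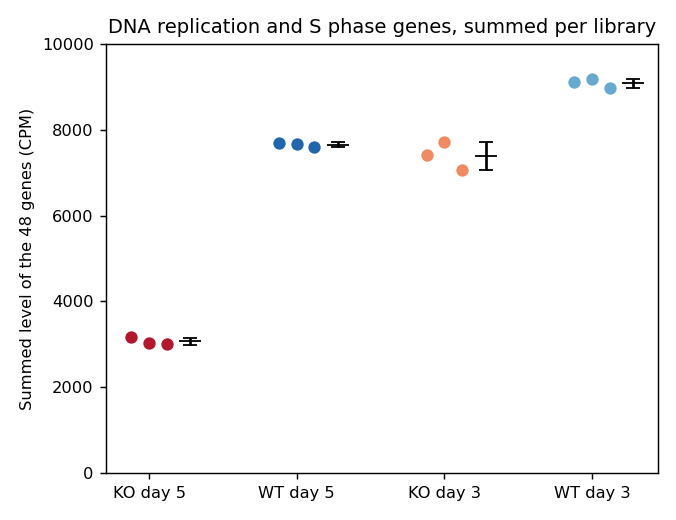
Summed level of the 48 replication and S phase genes in each library (points, CPM), with mean and SD (n = 3) beside each group. The 3 KO day 5 libraries lie between 3013 and 3162 CPM and the 9 other libraries between 7058 and 9175 CPM.

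At day 5, 47 of the 48 genes fell in KO cells and none rose (limma, adjusted p below 0.05, adjusted over all 11417 genes). Of all genes tested, 22.9% fell and 16.5% rose in this comparison. The median log2 fold change of the 48 genes was −1.32, against −0.08 for all genes tested, and fitted changes ran from −2.08 in Ung to −0.45 in Gins4. In 47 genes every KO library lay below every WT library, against 26.7% of all genes tested. No member was higher in KO at an unadjusted p below 0.05, and none by edgeR or DESeq2, in this or in any of the 5 comparisons. The gene that missed the threshold was Rpa3 (adjusted p = 0.0503). Of the calls, 45 held under all alternatives tried. The exceptions were Gins4 and Gins1. Of all calls in this comparison, 58.1% were falls, and this split became 47.7% with median-of-ratios scaling, under which 46 of the replication genes fell, with a median of −1.22. All fold changes are differences of log2(CPM + 1), a scale that shrinks those of genes with few reads.

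At day 3, 15 of the 48 genes fell in KO cells and none rose. Of all genes tested, 7.23% fell and 11.2% rose. The median of the 48 genes was −0.27, against −0.01 for all genes tested, and fitted values lay above 0 in Gins2, Rfc2 and Rfc3. In 30 genes every KO library lay below every WT library, against 19.1% of all genes tested. The 15 genes included Cdc6, Cdt1, Mcm3 and Mcm7 of licensing, Mcm10, Rfc1, Pold1 and Pold2 of the fork, and Rpa2 and Lig1. The others were Rrm1, Dut and Ung of the nucleotide supply and uracil group, and Hells and Uhrf1 of chromatin assembly. All 15 also fell at day 5. Cdc6, Cdt1, Rpa2, Lig1, Dut, Hells and Uhrf1 kept their day 3 call under all alternatives, and the other 8 lost it under at least 1. The count was 8 without WT day 3 replicate 2, 9 without KO day 3 replicate 1 and 23 without KO day 5 replicate 2, which enters through the shared estimate of the spread.

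**Figure D3:**
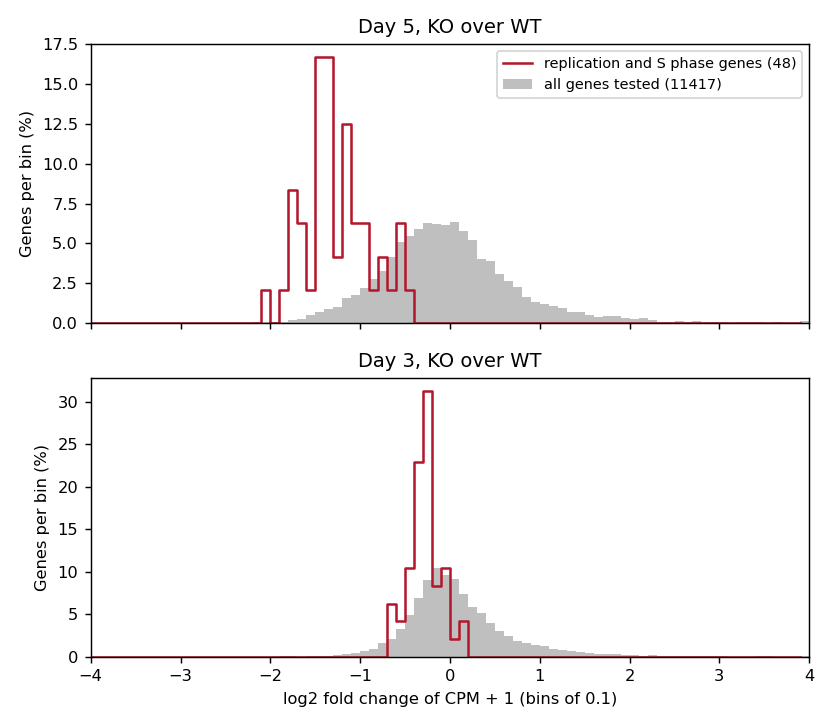
Distribution of log2 fold changes, KO over WT, of CPM + 1 at day 5 (top) and day 3 (bottom), as the percentage of genes in bins of 0.1. Grey bars are all 11417 genes tested (values beyond the axis are in the outer bins) and the red line the 48 replication genes, whose median was −1.32 at day 5 and −0.27 at day 3.

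Origin licensing genes fell at day 5 in 10 of 10 cases, with a median log2 fold change of −1.44, and 4 of the 10 fell at day 3. The day 3 count was 7 without KO day 5 replicate 2, which enters only the shared spread, and 2 without WT day 3 replicate 2. Mcm2, a subunit of the Mcm2-7 helicase, had 59.5, 37.0 and 44.9 CPM in KO day 5 and 135, 156 and 148 CPM in WT day 5. At day 3 it had 176, 173 and 141 CPM in KO and 204, 202 and 214 CPM in WT. The libraries of the genotypes did not overlap at either day, and the fall was called at day 5 (log2 fold change −1.64 ± 0.13 SE, adjusted p = 2.72e-09) but not at day 3 (log2 fold change −0.35 ± 0.13 SE, adjusted p = 0.0728). Orc1, an ATPase subunit of the origin recognition complex, had 6.47, 3.70 and 3.79 CPM in KO day 5 and 12.9, 22.9 and 12.4 CPM in WT day 5. At day 3 its libraries overlapped, with 15.4, 12.4 and 17.5 CPM in KO and 17.2, 14.4 and 23.3 CPM in WT. It fell at day 5 (log2 fold change −1.57 ± 0.29 SE, adjusted p = 0.000142). Mcm7, another helicase subunit and the licensing gene with the most reads, had a smaller fitted fall, with 352, 337 and 289 CPM in KO day 5 and 706, 776 and 731 CPM in WT day 5 (log2 fold change −1.18 ± 0.09 SE, adjusted p = 5.23e-10). In day 3 libraries it had 688, 830.1 and 731 CPM in KO and 954, 990.4 and 881 CPM in WT, with no overlap (log2 fold change −0.33 ± 0.09 SE, adjusted p = 0.00905), and this call was lost without WT day 3 replicate 2 (adjusted p = 0.0549) or KO day 3 replicate 1 (adjusted p = 0.06). Orc6, the smallest origin recognition subunit, had the least fall of the group at day 5, with 29.8, 23.4 and 34.1 CPM in KO and 68.4, 61.3 and 59.9 CPM in WT (log2 fold change −1.11 ± 0.15 SE, adjusted p = 5.8e-06). The other 6 genes, Cdc6, Cdt1 and Mcm3 to Mcm6, changed at day 5 by between −1.49 and −1.36.

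The loading factors Cdc6 and Cdt1 had the largest day 3 differences of the licensing genes. Cdc6, which the origin recognition complex recruits, had 83.0, 89.2 and 87.0 CPM in KO day 3 and 127, 129 and 142 CPM in WT day 3 (log2 fold change −0.61 ± 0.13 SE, adjusted p = 0.00156). Cdt1, which escorts the helicase to origins, had 51.2, 60.0 and 43.2 CPM in KO day 3 and 93.0, 79.8 and 74.3 CPM in WT day 3 (log2 fold change −0.67 ± 0.14 SE, adjusted p = 0.00171). In both genes every KO library lay below every WT library at day 3 and again at day 5. At day 5 Cdc6 had 26.5, 23.4 and 33.5 CPM in KO and 78.9, 85.8 and 73.5 CPM in WT, and Cdt1 had 31.1, 26.5 and 30.3 CPM in KO and 88.8, 73.0 and 84.8 CPM in WT.

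Helicase activation genes fell at day 5 in 6 of 6 cases (median −1.001), and Mcm10 was the only one of them called at day 3, a call lost under 14 alternatives (adjusted p from 0.0519 to 0.203). Mcm10, which helps start unwinding, had 29.1, 18.5 and 20.8 CPM in KO day 5 and 79.5, 82.5 and 82.5 CPM in WT day 5 (log2 fold change −1.82 ± 0.15 SE, adjusted p = 2.68e-09). Cdc45, the helicase cofactor, had 14.9, 8.02 and 8.84 CPM in KO day 5 and 33.9, 42.9 and 36.2 CPM in WT day 5 (log2 fold change −1.78 ± 0.20 SE, adjusted p = 3.18e-07). Neither overlapped at day 5. At day 3 Cdc45 had 45.7, 40.0 and 35.0 CPM in KO and 45.6, 55.4 and 44.8 CPM in WT, and these libraries overlapped. The genes of the GINS complex, the other cofactor, had smaller fitted changes. Gins3 had 15.5, 32.1 and 18.3 CPM in KO day 5 and 38.6, 37.3 and 35.6 CPM in WT day 5 (log2 fold change −0.80 ± 0.20 SE, adjusted p = 0.00261), with KO replicate 2 highest of the KO libraries. Gins4 had 20.7, 21.0 and 24.6 CPM in KO day 5 and 28.6, 30.7 and 32.2 CPM in WT day 5 (log2 fold change −0.45 ± 0.16 SE, adjusted p = 0.0315). Although these libraries did not overlap, the Gins4 call was lost under 9 alternatives. The adjusted p was 0.308 by DESeq2 and 0.0974 by edgeR's quasi-likelihood test. It was also lost without KO day 5 replicate 1 (adjusted p = 0.0848), KO day 5 replicate 2 (0.07), WT day 5 replicate 2 (0.0706) or WT day 5 replicate 3 (0.0956). Gins1 (log2 fold change −0.99 ± 0.27 SE, adjusted p = 0.00587) and Gins2 (log2 fold change −1.01 ± 0.22 SE, adjusted p = 0.000725, or a log2 fold change of −0.61 without KO day 5 replicate 2) fell, and the Gins1 call was lost with DESeq2 (adjusted p = 0.0587).

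The clamp and its loader had the smallest median fall of the 7 groups at day 5 (−0.84, with 6 of 6 genes falling), and Rfc1 was the only gene called at day 3, a call lost under 14 alternatives (adjusted p from 0.0541 to 0.192). Pcna, the sliding clamp that holds polymerases on DNA, had 131, 121 and 149 CPM in KO day 5 and 276, 317 and 330.0 CPM in WT day 5 (log2 fold change −1.19 ± 0.10 SE, adjusted p = 2.37e-09). Day 3 levels of Pcna were 388, 324 and 324 CPM in KO and 381, 374 and 388 CPM in WT. The libraries were apart at day 5 and overlapped at day 3. Rfc4, a clamp loader subunit with few reads, had 5.18, 4.93 and 6.32 CPM in KO day 5 and 13.4, 21.7 and 11.3 CPM in WT day 5 (log2 fold change −1.30 ± 0.29 SE, adjusted p = 0.00105). Rfc2 and Rfc5, which belong to the same loader, had the smallest fitted changes of the group. Rfc2 had 56.9, 82.6 and 63.2 CPM in KO day 5 and 95.8, 108 and 99.4 CPM in WT day 5 (log2 fold change −0.59 ± 0.16 SE, adjusted p = 0.00517). Its day 3 levels were 128, 109.8 and 77.1 CPM in KO and 106, 87.5 and 82.8 CPM in WT, with overlap. Rfc5 had 53.1, 60.4 and 51.2 CPM in KO day 5 and 85.3, 87.0 and 81.9 CPM in WT day 5 (log2 fold change −0.62 ± 0.12 SE, adjusted p = 0.00029). Rfc1, the large subunit of the loader, changed at day 5 by −0.77 ± 0.10 SE and Rfc3 by −0.91 ± 0.14 SE.

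Primase and polymerase genes fell at day 5 in 9 of 9 cases (median −1.32, or −1.14 without KO day 5 replicate 2), and Pold1 and Pold2 also fell at day 3. The day 3 count of 2 became 5 without KO day 5 replicate 2, 1 when KO replicate 1 or WT replicate 3 of day 3 was left out, and 0 when KO replicate 3 or WT replicate 2 of that day was. Pole2, an accessory subunit of the leading-strand polymerase, had 4.53, 2.47 and 6.32 CPM in KO day 5 and 11.7, 19.5 and 19.2 CPM in WT day 5 (log2 fold change −1.74 ± 0.29 SE, adjusted p = 4.97e-05). Pold1, the catalytic subunit of polymerase delta, had 20.7, 26.5 and 19.0 CPM in KO day 5 and 63.1, 72.5 and 74.0 CPM in WT day 5 (log2 fold change −1.63 ± 0.14 SE, adjusted p = 5.86e-09). At day 3 Pold1 had 64.6, 75.2 and 63.4 CPM in KO and 86.5, 101 and 94.7 CPM in WT (log2 fold change −0.47 ± 0.14 SE, adjusted p = 0.0212). Pold1 thus had KO libraries below all WT libraries at both days. Its day 3 call was lost when replicate 2 or 3 of WT day 3, or replicate 1 or 3 of KO day 3, was left out, with adjusted p from 0.063 to 0.094. Pold3, an accessory subunit of the same enzyme, had a smaller fitted change, with 45.9, 49.95 and 44.2 CPM in KO day 5 and 73.6, 58.0 and 83.1 CPM in WT day 5 (log2 fold change −0.59 ± 0.14 SE, adjusted p = 0.00191). Pola1, the catalytic subunit of the polymerase that extends RNA primers, had 80.2, 83.9 and 71.4 CPM in KO day 5 and 168, 148 and 159.9 CPM in WT day 5 (log2 fold change −1.01 ± 0.09 SE, adjusted p = 2.35e-08). The other 5 genes, Pola2, Prim1, Prim2, Pold2 and Pole, lay between −1.41 ± 0.18 SE (Pold2) and −1.14 ± 0.19 SE (Pola2) at day 5.

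Of the single-strand and flap genes, 4 of 5 fell at day 5 and 2 of 5 at day 3. Lig1, the ligase that seals Okazaki fragments (ENSMUSG00000056394, chr7:13277283-13311433 on the plus strand of GRCm38), had the most reads of the 48 genes. It had 409, 388 and 377 CPM in KO day 5 and 1236, 1243 and 1092 CPM in WT day 5. The day 3 levels were 940.2, 1018 and 957 CPM in KO and 1337, 1311 and 1179.6 CPM in WT. Neither day showed any overlap, and Lig1 fell at day 5 (log2 fold change −1.60 ± 0.07 SE, adjusted p = 1.04e-12) and at day 3 (log2 fold change −0.39 ± 0.07 SE, adjusted p = 0.000681). The subunits of replication protein A, which coats single-stranded DNA, had unlike fitted changes, and the difference between them was not tested. Rpa2 had 102, 83.2 and 103 CPM in KO day 5 and 235, 251 and 241 CPM in WT day 5 (log2 fold change −1.33 ± 0.09 SE, adjusted p = 3.41e-10). Rpa1, the large subunit, had 96.4, 70.9 and 78.3 CPM in KO day 5 and 122.7, 122.6 and 121 CPM in WT day 5 (log2 fold change −0.58 ± 0.11 SE, adjusted p = 0.000224), without overlap. Rpa3, the small subunit, had 1.29, 8.02 and 3.79 CPM in KO day 5 and 11.1, 8.92 and 5.65 CPM in WT day 5 (log2 fold change −1.003 ± 0.40 SE, adjusted p = 0.0503), and its libraries overlapped. Without KO day 5 replicate 2, the highest of the 3 KO libraries in Rpa3, it passed the threshold (log2 fold change −1.48, adjusted p = 0.00292). That was the favourable end: over all alternatives the Rpa3 log2 fold change ran from −1.48 to −0.50 and its adjusted p from 0.00292 to 0.311. Fen1, the flap endonuclease, changed at day 5 by −1.14 ± 0.14 SE.

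Nucleotide supply and uracil genes fell at day 5 in 6 of 6 cases (median −1.37), and Rrm1, Dut and Ung also fell at day 3. That count of 3 became 4 without KO day 5 replicate 2 and 1 when replicate 1 of either genotype at day 3 was left out. Ung, the glycosylase that removes uracil from DNA (ENSMUSG00000029591, chr5:114130386-114139323 on the plus strand of GRCm38), had the largest fitted fall of the 48 genes. It had 12.3, 15.4 and 16.4 CPM in KO day 5 and 70.1, 56.9 and 68.9 CPM in WT day 5. At day 3 it had 61.2, 57.3 and 67.8 CPM in KO and 94.2, 79.8 and 89.0 CPM in WT. Its KO libraries lay below the WT libraries at both days. It fell at day 5 (log2 fold change −2.08 ± 0.14 SE, adjusted p = 2.41e-10) and at day 3 (log2 fold change −0.49 ± 0.14 SE, adjusted p = 0.0197). The day 3 call was lost when replicate 1 or 3 of WT, or replicate 1 or 2 of KO, was left out (adjusted p from 0.0588 to 0.0898). Dut, which breaks down dUTP and so keeps uracil out of DNA, had 157, 152 and 152 CPM in KO day 5 and 418, 411 and 458 CPM in WT day 5 (log2 fold change −1.48 ± 0.07 SE, adjusted p = 2.54e-12). Its day 3 levels were 419.6, 424 and 407 CPM in KO and 520.0, 528 and 533 CPM in WT (log2 fold change −0.34 ± 0.07 SE, adjusted p = 0.00219). Tk1, the thymidine salvage kinase, had 49.8, 42.5 and 51.2 CPM in KO day 5 and 115, 116 and 124 CPM in WT day 5 (log2 fold change −1.29 ± 0.10 SE, adjusted p = 2.32e-09). Tyms, which makes dTMP, had the smallest fitted change of the group, with 13.6, 21.6 and 18.3 CPM in KO day 5 and 33.3, 27.3 and 39.0 CPM in WT day 5 (log2 fold change −0.87 ± 0.19 SE, adjusted p = 0.000762). The ribonucleotide reductase subunits Rrm1 and Rrm2 changed at day 5 by −1.40 ± 0.08 SE and −1.34 ± 0.09 SE.

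Chromatin assembly and maintenance genes fell at day 5 in 6 of 6 cases (median −1.35), and Hells and Uhrf1 also fell at day 3 (3 genes without KO day 5 replicate 2). Hells is a chromatin remodeller needed for DNA methylation. At day 3 it had 265, 271 and 238 CPM in KO and 346, 358 and 363 CPM in WT, with no overlap (log2 fold change −0.46 ± 0.09 SE, adjusted p = 0.000971). Its day 5 levels were 86.1, 75.2 and 94.1 CPM in KO and 308, 292 and 277 CPM in WT (log2 fold change −1.77 ± 0.09 SE, adjusted p = 4.21e-12). Uhrf1, which reads hemimethylated DNA and recruits Dnmt1, had 81.5, 80.2 and 79.0 CPM in KO day 5 and 258, 265 and 266 CPM in WT day 5 (log2 fold change −1.70 ± 0.09 SE, adjusted p = 2.84e-12). Day 3 levels of Uhrf1 were 247, 259.6 and 219.9 CPM in KO and 322, 294 and 322 CPM in WT (log2 fold change −0.37 ± 0.09 SE, adjusted p = 0.0038). Uhrf1 libraries of the 2 genotypes were apart at both days, and tightly grouped at day 5. Chaf1a, the large subunit of the histone chaperone CAF-1, had the smallest fitted change of the group, with 29.8, 27.8 and 22.1 CPM in KO day 5 and 59.0, 50.7 and 50.3 CPM in WT day 5 (log2 fold change −0.99 ± 0.14 SE, adjusted p = 5.68e-06). Slbp, which binds the stem-loop of histone transcripts, had 36.9, 38.2 and 41.1 CPM in KO day 5 and 97.0, 87.0 and 102 CPM in WT day 5 (log2 fold change −1.27 ± 0.11 SE, adjusted p = 1.11e-08). The maintenance methyltransferase gene Dnmt1 changed at day 5 by −1.34 ± 0.08 SE and Chaf1b, the middle subunit of CAF-1, by −1.35 ± 0.17 SE.

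**Figure D4:**
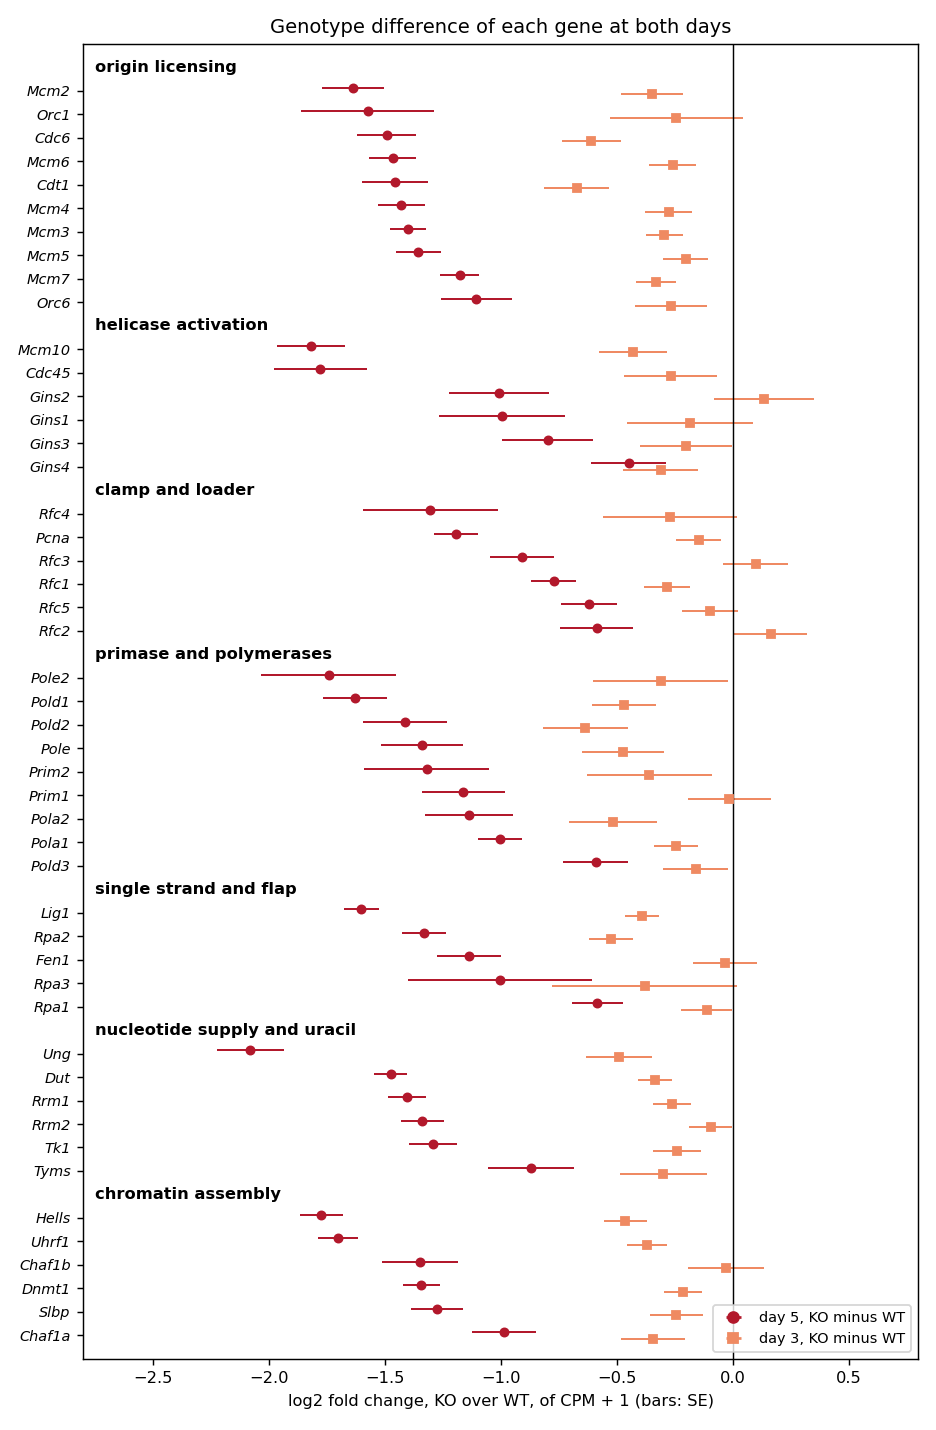
Log2 fold change of each of the 48 genes, KO over WT, at day 5 (circles) and day 3 (squares), with SE from limma, grouped by role. At day 5 all points lie left of 0, from Ung at −2.08 to Gins4 at −0.45, and at day 3 they lie between −0.67 in Cdt1 and 0.16 in Rfc2.

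Between day 3 and day 5, the transcripts of nearly all these genes fell in KO cells, and those of fewer genes, by less, fell in WT cells. In KO cells 46 of the 48 genes were lower at day 5 than at day 3 and none was higher, with a median log2 fold change of −1.26, against −0.04 for all genes tested, of which 19.7% fell and 15.4% rose. In 46 genes the KO day 5 libraries lay below all KO day 3 libraries, against 23.3% of all genes tested. Gins4 and Rpa3 were not called (adjusted p = 0.0808 and 0.0939). In WT cells 12 of the 48 were lower at day 5 and none was higher, with a median of −0.25, against 0.05 for all genes tested, of which 3.77% fell and 7.17% rose. In 31 genes the WT day 5 libraries lay below all WT day 3 libraries, against 13.1% of all genes tested.

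The 12 genes that fell with time in WT cells were Cdc6, Mcm2, Mcm3, Mcm4, Mcm5 and Mcm7 of licensing, Pcna, Pola2 and Chaf1a, and the nucleotide supply genes Rrm2, Tyms and Dut. Cdc6 and Rrm2, the regulated small subunit of ribonucleotide reductase, kept that call under all alternatives. Rrm2 had 143, 155 and 139 CPM in WT day 5 and 230.4, 234 and 232 CPM in WT day 3 (log2 fold change −0.67 ± 0.09 SE, adjusted p = 3.91e-05). In KO cells it had 62.8, 51.8 and 56.9 CPM at day 5 and 223, 221 and 208 CPM at day 3 (log2 fold change −1.91 ± 0.09 SE, adjusted p = 4.28e-12). At day 3 the KO libraries lay just below the WT libraries, and that difference was not called (log2 fold change −0.10 ± 0.09 SE, adjusted p = 0.528). Cdc6 in WT cells had 78.9, 85.8 and 73.5 CPM at day 5 and 127, 129 and 142 CPM at day 3 (log2 fold change −0.73 ± 0.13 SE, adjusted p = 0.000432). The WT count was fragile: it was 6 without WT day 3 replicate 1, 2 or 3 and without WT day 5 replicate 1, 5 without WT day 5 replicate 2, 7 without WT day 5 replicate 3 and 18 without KO day 5 replicate 2. Between the 12 genes lower with time in WT cells and the 15 lower in KO at day 3, 4 were shared (33.3% of the 12 and 26.7% of the 15), in comparisons that use the same WT day 3 libraries. Of all 48 genes, 15 were called at day 3 and 12 with time in WT cells. Whether the sharing exceeds these base shares was not tested.

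The change of the genotype difference between the days was tested with an interaction term. It was negative and called in 37 of the 48 genes and positive and called in none, while 8.85% of all genes tested had a negative call and 4.01% a positive one. The median interaction was −1.04, against −0.11 for all genes tested. Of all interaction calls, 68.8% were negative, and this split became 54.6% with median-of-ratios scaling, under which 33 of these 37 genes remained called. The largest were Ung (log2 −1.59 ± 0.20 SE, adjusted p = 1.57e-05), Cdc45 (log2 −1.51 ± 0.28 SE, adjusted p = 0.000916) and Pole2 (log2 −1.43 ± 0.41 SE, adjusted p = 0.023). The Pole2 call was lost under 6 alternatives, 5 of which left out 1 library: WT day 3 replicate 1, KO day 3 replicate 1 or 2, or WT day 5 replicate 2 or 3 (adjusted p from 0.0603 to 0.0688). The 11 genes without a call were Gins1, Gins3, Gins4, Rfc4, Pola2, Prim2, Pold2, Pold3, Rpa1, Rpa3 and Tyms. Of these, Gins3 was called without KO day 5 replicate 2 (adjusted p = 0.00632), and Pola2, Prim2, Pold2 and Rpa1 without KO day 5 replicate 1 (adjusted p from 0.00293 to 0.0381). Licensing and chromatin assembly genes were called in 10 of 10 and 6 of 6 cases, but the calls of Orc1 and Chaf1a were lost under 10 and 12 alternatives, and those of Orc6 and Cdt1 under 1 each. Helicase activation genes were called in 3 of 6 cases (4 without KO day 5 replicate 2) and single-strand and flap genes in 3 of 5. The clamp and loader count of 5 was 2 to 5 when 1 library was left out, with 2 without KO day 3 replicate 2. It was 3 when replicate 1 or 3 of KO day 5, replicate 2 or 3 of WT day 3, or any 1 of the WT day 5 libraries was left out. The primase and polymerase count of 5 became 8 without KO day 5 replicate 1 and 3 without KO day 3 replicate 1. Of the 37 calls, 27 held under all alternatives. Differences between the role groups were not tested.

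**Figure D5:**
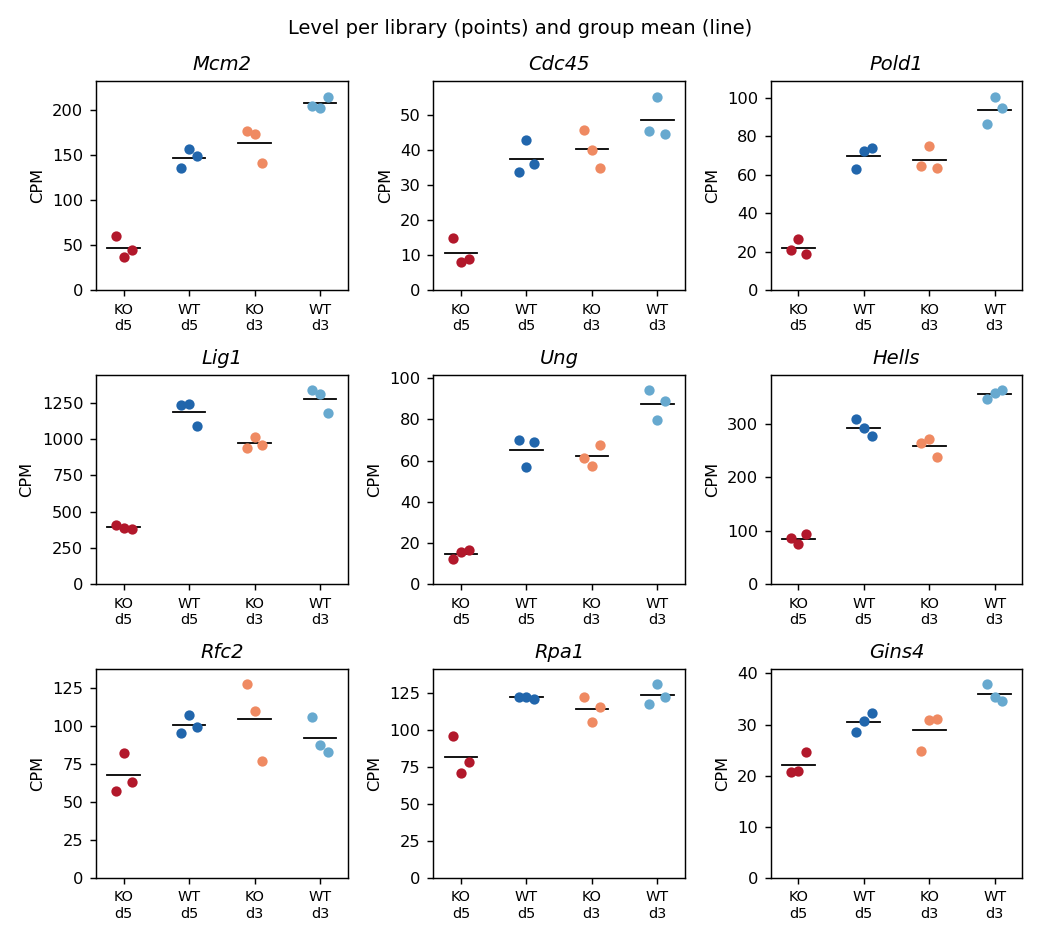
Level in CPM of 9 genes in each library (points), with the group mean (line), for KO day 5, WT day 5, KO day 3 and WT day 3 from left to right, with each axis starting at 0. Mcm2, Cdc45, Pold1, Lig1, Ung and Hells are far lower in KO day 5 than in the other 3 groups, while Rfc2, Rpa1 and Gins4 differ less.

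A list of 44 further replication genes gave the same direction with exceptions. It was also chosen with earlier results of these data known, so it is not independent support. At day 5, 37 of the 44 fell in KO cells and 2 rose (median −1.12), and at day 3, 13 fell and none rose (19 without KO day 5 replicate 2). Among all genes tested, 22.9% fell and 16.5% rose at day 5 (median −0.08), and 7.23% fell and 11.2% rose at day 3. The largest falls were in Cdca7, Dscc1 and Dna2. Cdca7, which activates the remodeller Hells, had 42.1, 44.4 and 24.6 CPM in KO day 5 and 118, 139.9 and 134 CPM in WT day 5 (log2 fold change −1.83 ± 0.16 SE, adjusted p = 1.27e-08). Dscc1, of an alternative clamp loader, had 2.59, 2.47 and 1.26 CPM in KO day 5 and 11.1, 8.36 and 10.2 CPM in WT day 5 (log2 fold change −1.83 ± 0.31 SE, adjusted p = 6.05e-05). Dna2, a nuclease of Okazaki fragment ends, had 3.88, 2.47 and 0.632 CPM in KO day 5 and 5.84, 11.7 and 10.2 CPM in WT day 5 (log2 fold change −1.71 ± 0.38 SE, adjusted p = 0.00102). With a pseudocount of 5 the fold changes of these weakly expressed genes shrank to −1.07 in Dscc1 and −0.96 in Dna2. Pold4, the smallest subunit of polymerase delta, went the other way, with 26.5, 33.9 and 29.7 CPM in KO day 5 and 7.01, 10.6 and 8.48 CPM in WT day 5 (log2 fold change 1.69 ± 0.33 SE, adjusted p = 0.000341).

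Samhd1, a hydrolase that breaks down dNTPs and so acts against nucleotide supply, also rose in KO cells at day 5. It had 342, 335 and 333 CPM in KO day 5 and 254, 259.7 and 293 CPM in WT day 5 (log2 fold change 0.33 ± 0.09 SE, adjusted p = 0.00462). At day 3 it was lower in KO cells, with 148, 164 and 167 CPM in KO and 224, 197 and 202 CPM in WT (log2 fold change −0.38 ± 0.09 SE, adjusted p = 0.0034). Neither day showed overlap, and the genotype difference changed between the days (log2 0.71 ± 0.12 SE, adjusted p = 0.000438).

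Among the 17 genes with an E2F-like match the median day 5 log2 fold change was −1.46 (range −1.77 to −0.59), and among the 24 with a window and no match it was −1.28 (range −2.08 to −0.58). The difference between these groups was not tested. Genes with large fitted falls were in both: Hells, Pole2, Uhrf1 and Pold1 held a match, and Ung, Mcm10, Cdc45 and Mcm2 had none in the window. Of the other genes that fell in KO at day 5 and had a window, 7.71% of 2102 held the motif. Among the further replication genes 9 of 34 (26.5%) did.

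Markers of other cell types were summed in the same libraries. Erythroid markers (6 genes) summed to 18.8 to 34.7 CPM in KO day 5, 10.2 to 19.9 CPM in WT day 5, 15.9 to 55.2 CPM in KO day 3 and 4.74 to 14.96 CPM in WT day 3. Myeloid markers (5 genes) summed to 5.69 to 12.3 CPM in KO day 5, 0 to 0.584 CPM in WT day 5, 0.541 to 8.45 CPM in KO day 3 and 0 to 2.22 CPM in WT day 3. The erythroid sums overlapped between genotypes at day 5 and not at day 3, and the myeloid sums overlapped at day 3 and not at day 5. Of the myeloid markers, Itgam had 33 reads over the KO day 5 libraries and 2 over the WT day 5 libraries, while Lyz2 had 0 in both. The part of these markers in the differences above was not tested. Exons of 16 of the 48 genes overlap an exon of another gene in GENCODE M21, 14 of them on the opposite strand, and the sources used here do not say how such reads were divided.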

How the data were processed

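The members and gene lists were chosen with earlier results of these data known. QuantSeq 3′ libraries were made from 500 ng of RNA, per the labels' protocols, and their tags lie near transcript ends, so levels do not scale with gene length. The deposited columns carry the name TPM. Every column adds up to 1000000, however, and 100% of its values are multiples of what 1 read is worth (tolerance 0.001 read). The values were thus taken to be CPM computed by the authors, and the log-scale test planned for TPM was kept. The submitters' processing notes name GRCm39 and mm10. The sources used here do not give the aligner, the counter or whether strand was used. Gene positions are from GENCODE M21 (GRCm38) and promoter sequences from RefSeq (GRCm38.p6).

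A gene was tested where at least 3 libraries had 1 CPM or more (11417 of 25655). A limma 3.58.1 model (R 4.3.3) of log2(CPM + 1) had a mean for each of the 4 groups and a trended prior, and its moderated tests were two-sided. Benjamini-Hochberg adjustment ran over all genes tested, and a call needed an adjusted p below 0.05. The genotypes were compared within each day, the days within each genotype, and the genotype difference between days by an interaction term, which makes 5 comparisons. Samples were grouped by their titles. Whole reads recovered from the CPM steps were also tested with edgeR 4.0.16 and DESeq2 1.42.0. The remaining alternatives changed the pseudocount (0.1 or 5), the filter (none, or 5 CPM), the scaling (median-of-ratios or quantile), the prior (untrended or robust) or the libraries fitted (only those compared, or all but 1), or added the replicate number as a block.

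The text names, in each role group, the 2 genes with the largest and the 2 with the smallest fitted change at day 5, the 3 largest interactions, and of the further genes the 3 largest falls and each rise called. Cdc6, Cdt1, Rrm2, Gins1, Gins2 and the genes plotted by library were added after their values were seen. Promoter motifs were searched by exact match, also chosen after the values were seen.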

Additional observations from a re-analysis of the deposited data

Results flagged for a closer look

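In 37 of the 48 genes the genotype difference itself differed between the days, by limma's interaction term (adjusted p below 0.05 over all genes). All 37 values are negative, so the log2 difference KO minus WT was lower at day 5 than at day 3. Of these calls, 27 held under all alternatives and 10 were lost under at least 1. Among the licensing genes the interaction was −1.33 in Orc1, −0.84 in Orc6, −0.88 in Cdc6, −0.78 in Cdt1, −1.29 in Mcm2, −1.11 in Mcm3, −1.15 in Mcm4, −1.15 in Mcm5, −1.21 in Mcm6 and −0.85 in Mcm7. Of the helicase activation genes, Mcm10 had −1.38, Cdc45 −1.51 and Gins2 −1.14. For the clamp and its loader the values were −1.05 in Pcna, −0.49 in Rfc1, −0.75 in Rfc2, −1.01 in Rfc3 and −0.52 in Rfc5. The call was lost under 17 alternatives in Rfc5, 13 in Rfc2 and 7 in Rfc1. The primase and polymerase genes gave −0.76 in Pola1, −1.15 in Prim1, −1.16 in Pold1, −0.87 in Pole and −1.43 in Pole2. Single-strand and flap genes gave −0.80 in Rpa2, −1.11 in Fen1 and −1.21 in Lig1. Nucleotide supply and uracil genes gave −1.14 in Rrm1, −1.24 in Rrm2, −1.05 in Tk1, −1.14 in Dut and −1.59 in Ung. Chromatin assembly genes gave −0.64 in Chaf1a, −1.32 in Chaf1b, −1.31 in Hells, −1.33 in Uhrf1, −1.13 in Dnmt1 and −1.03 in Slbp.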

How the results depend on the processing

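The count of members lower in KO at day 5 was 45 to 48 under all alternatives, that of KO day 5 against KO day 3 was 44 to 47, and that of the interaction 28 to 39. The day 3 count of 15 was 8 with no trend in the spread and 23 with only the libraries compared, and 8 to 23 when 1 library was left out. The WT day 5 against WT day 3 count of 12 was 3 with no trend, 22 with only the libraries compared, and 5 to 18 when 1 library was left out. The cause was not tested. By edgeR the counts were 46 at day 5, 15 at day 3, 46 for KO over the days, 17 for WT over the days and 35 for the interaction, and by DESeq2 45, 12, 44, 15 and 30. Without KO day 5 replicate 2 they were 47, 23, 47, 18 and 38. When 1 library was left out, uncalled day 3 values near 0 changed sign in 5 genes. Over all alternatives these values ran from −0.01 to 0.17 in Rfc3, −0.17 to 0.0053 in Rfc5, −0.14 to 0.12 in Prim1, −0.0633 to 0.0108 in Fen1 and −0.0916 to 0.0733 in Chaf1b. Libraries with the same replicate number did not deviate together (18 correlations of −0.014 to 0.042), so the numbers were not taken as pairing, and with the replicate block the counts were 48, 14, 46, 12 and 36. Precision is limited by 3 libraries per group and by depth: members with few reads, such as Rpa3, Rfc4 and Pole2, have the widest errors.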
